A study of Mus musculus with 4 samples.

Results

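The 3 genes Bdh1, Oxct1 and Acat1 encode the mitochondrial enzymes that carry β-hydroxybutyrate to acetyl-CoA, and they were measured by RNA sequencing in mouse intestinal epithelium sorted by GFP brightness, from animals fed either a control or a high-fat diet (HFD). They were found by matching the Ensembl gene identifiers of the count tables to mouse gene symbols, as 3 of 38124 identifiers, and all 3 were among the 10694 genes with enough reads to test. Each combination of diet and fraction was represented by 1 library. The HFD GFP-high library came from cells labelled intestinal stem cells of mice on the high-fat diet, and the HFD GFP-low library from cells labelled progenitors of mice on that diet. The control GFP-high and control GFP-low libraries came from the same kinds of cells of mice labelled WT and given the normal diet. All mice were male, C57BL/6 and 71 weeks old. Each RNA sample held 200K sorted cells pooled from 2 to 5 mice. The sources used here give neither the composition of the diets, nor the time on them, nor the gene that drives GFP. Whether a GFP-high and a GFP-low sample came from the same mice is not stated either.

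Ketone bodies are small, water-soluble fuels made from acetyl-CoA, mainly in liver mitochondria, when fatty acid oxidation is high. Acetoacetate is the first ketone body made, and β-hydroxybutyrate dehydrogenase, encoded by Bdh1, converts it to β-hydroxybutyrate and back. Tissues that burn ketone bodies use the CoA transferase SCOT, encoded by Oxct1, to activate acetoacetate with CoA taken from succinyl-CoA. The mitochondrial thiolase encoded by Acat1 then splits acetoacetyl-CoA into 2 acetyl-CoA, and the same enzyme runs the reverse reaction at the start of synthesis and the final thiolysis of isoleucine breakdown. In the intestinal crypt, β-hydroxybutyrate has been studied as a metabolite that acts on stem cell maintenance as well as a fuel.

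Bdh1 (ENSMUSG00000046598) lies on the forward strand at chr16:31422280-31458901 of GRCm38, Oxct1 (ENSMUSG00000022186) on the forward strand at chr15:4026383-4155344, and Acat1 (ENSMUSG00000032047) on the reverse strand at chr9:53580522-53610382, all in the GENCODE M21 annotation. Their exonic lengths were 3888 bases for Bdh1, 3701 for Oxct1 and 3758 for Acat1. Few reads were counted for the antisense genes that share exonic bases with Bdh1 and Oxct1. The strand setting used for counting is not stated, so these counts cannot show how antisense reads were assigned. Bdh1 shares 533 exonic bases with the antisense gene Gm15743, which had 0 and 2 reads in the HFD GFP-high and GFP-low libraries and 1 and 0 in the control ones, and Oxct1 shares 467 with BC037032, which had 4 and 5 reads against 2 and 5. Acat1 overlaps no other annotated gene.

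The promoter of Oxct1 and both RefSeq promoters of Bdh1 are printed because Oxct1 had the largest diet difference of the 3 genes and Bdh1 the smallest. Each covers 250 bases before to 50 bases after a transcription start of RefSeq on GRCm38.p6, read along the gene, with the bases from the start onward in capitals. They lie at chr15:4026178-4026477 for Oxct1, and at chr16:31422047-31422346 and chr16:31428503-31428802 for the upstream and downstream starts of Bdh1, all on the forward strand.
Oxct1: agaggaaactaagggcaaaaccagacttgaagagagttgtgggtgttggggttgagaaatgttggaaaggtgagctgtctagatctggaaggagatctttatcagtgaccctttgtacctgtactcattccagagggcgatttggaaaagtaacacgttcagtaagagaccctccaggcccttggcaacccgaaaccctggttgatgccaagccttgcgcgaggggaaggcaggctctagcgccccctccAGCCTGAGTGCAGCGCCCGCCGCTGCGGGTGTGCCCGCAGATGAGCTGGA
Bdh1 upstream start: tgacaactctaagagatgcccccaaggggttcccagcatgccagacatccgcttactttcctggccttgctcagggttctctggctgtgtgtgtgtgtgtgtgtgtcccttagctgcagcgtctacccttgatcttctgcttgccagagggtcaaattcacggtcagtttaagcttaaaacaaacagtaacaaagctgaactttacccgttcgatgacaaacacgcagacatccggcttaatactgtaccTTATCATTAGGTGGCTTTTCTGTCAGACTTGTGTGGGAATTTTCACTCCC
Bdh1 downstream start: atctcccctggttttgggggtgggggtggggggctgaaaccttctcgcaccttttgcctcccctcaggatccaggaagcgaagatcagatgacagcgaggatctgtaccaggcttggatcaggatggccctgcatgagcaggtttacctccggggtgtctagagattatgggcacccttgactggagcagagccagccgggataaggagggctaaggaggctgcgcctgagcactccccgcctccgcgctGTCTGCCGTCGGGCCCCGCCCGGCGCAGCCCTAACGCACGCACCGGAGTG
The GC content was 55.3% for Oxct1, 48.3% for the upstream and 63.7% for the downstream Bdh1 promoter, with 11, 7 and 17 CG dinucleotides in that order. The hexamer AGGTCA, the core that nuclear receptors such as the PPARs recognise, was found on neither strand of the 3 windows, and 16.2% of the 32544 promoters in the table held it. No binding data exist in this series to set beside the sequences.

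The libraries held 6207080 and 5327015 counts in HFD GFP-high and GFP-low cells and 5201394 and 4677389 in control GFP-high and GFP-low cells. The fraction labels were checked against markers. All 10 crypt base stem cell markers, Lgr5 and Olfm4 among them, were higher in GFP-high cells, with a summed level of 9730 and 10720 CPM (read counts scaled to the size of the library) in the HFD and control GFP-high libraries against 1533 and 2050 in the HFD and control GFP-low ones. The GFP-low libraries held more of the summed markers of 4 differentiated lineages, namely absorptive enterocyte, goblet, Paneth and enteroendocrine. Markers of other tissues were low but present. Of 7 leukocyte markers 4 or 5 had reads in each library, 90 to 164 reads in sum, while Ptprc had none in any library. Of 7 stromal and endothelial markers 2 or 3 had reads, with sums of 16 and 9 in the HFD and control GFP-high libraries and 79 and 115 in the HFD and control GFP-low ones, while Col1a1, Col1a2, Col3a1 and Cdh5 had none. The tested member of each list was called lower in GFP-high cells, Itgam with a log2 fold change of -1.24 (edgeR adjusted p = 9.84e-05) and Vim with -3.59 (adjusted p = 6.71e-07). Mitochondrial ribosomal RNA took 1.18% of the counts of the HFD GFP-high library, against 2.82% in HFD GFP-low cells and 2.54% and 2.60% in the GFP-high and GFP-low cells on control diet, so the HFD GFP-high library stood apart on this measure.

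Diet and fraction effects were estimated together in edgeR over all 4 libraries and all tested genes, with TMM scaling (a trimmed mean of gene ratios sets each library's size), and a gene was called at a Benjamini-Hochberg adjusted p under 0.05. With 1 library per combination, the spread comes from how far the libraries depart from adding up diet and fraction effects, with 1 residual degree of freedom shared across genes. P-values therefore measure the spread between these libraries, which cannot be told apart from technical variation. Those for diet would be too small if the GFP-high and GFP-low samples of a diet shared mice. Called in the diet comparison were 6.46% of tested genes, 2.96% higher and 3.50% lower on HFD, and in the fraction comparison 47.6%, 22.0% higher and 25.6% lower in GFP-high cells. Of the 3 genes, Oxct1 was called for diet and Acat1 for fraction.

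Bdh1 was close to level over the whole series. It had 208 and 220 CPM in HFD GFP-high and GFP-low cells, against 213 and 217 CPM in control GFP-high and GFP-low cells. These came from 1390 and 1087 reads on HFD and from 1176 and 957 on control diet. The highest library was 1.06 times the lowest, and the diets overlapped. Both GFP-high values lay below both GFP-low values, as they did for 34.3% of all tested genes, but by less than counting error, since the 95% intervals of all 6 log2 ratios between libraries included 0. The fitted log2 fold change of Bdh1 was -0.01 ± 0.09 for HFD over control (SE, edgeR adjusted p = 0.985) and -0.05 ± 0.09 for GFP-high over GFP-low (adjusted p = 0.674). In GFP-high cells the log2 ratio of HFD to control was -0.03 [95% interval -0.14 to 0.08], and in GFP-low cells 0.02 [-0.11 to 0.15].

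Oxct1 fell on the high-fat diet in both fractions. It had 84.5 and 77.5 CPM in HFD GFP-high and GFP-low cells, against 126 and 148 CPM in control GFP-high and GFP-low cells. The read counts behind them were 564 and 383 on HFD and 695 and 653 on control diet. Both HFD libraries lay below both control libraries, an arrangement that 11.0% of tested genes had. The fitted level was 1.68-fold lower on HFD, a log2 fold change of -0.75 ± 0.11 (SE, edgeR adjusted p = 0.000524). In GFP-high cells alone the log2 ratio of HFD to control was -0.57 [-0.74 to -0.41], and 4.55% of tested genes had a ratio as low or lower. In GFP-low cells it was -0.93 [-1.12 to -0.75], with 3.09% of tested genes as low or lower. The GFP-high pair contains the HFD GFP-high library, which stood apart in mitochondrial ribosomal RNA. In the GFP-low pair, summed goblet markers were at 17110 CPM on HFD against 38840 on control diet, and enterocyte markers at 6800 against 3281. Whether either bears on the Oxct1 ratios was not tested. The intervals of both ratios cover counting error only.

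**Figure D1:**
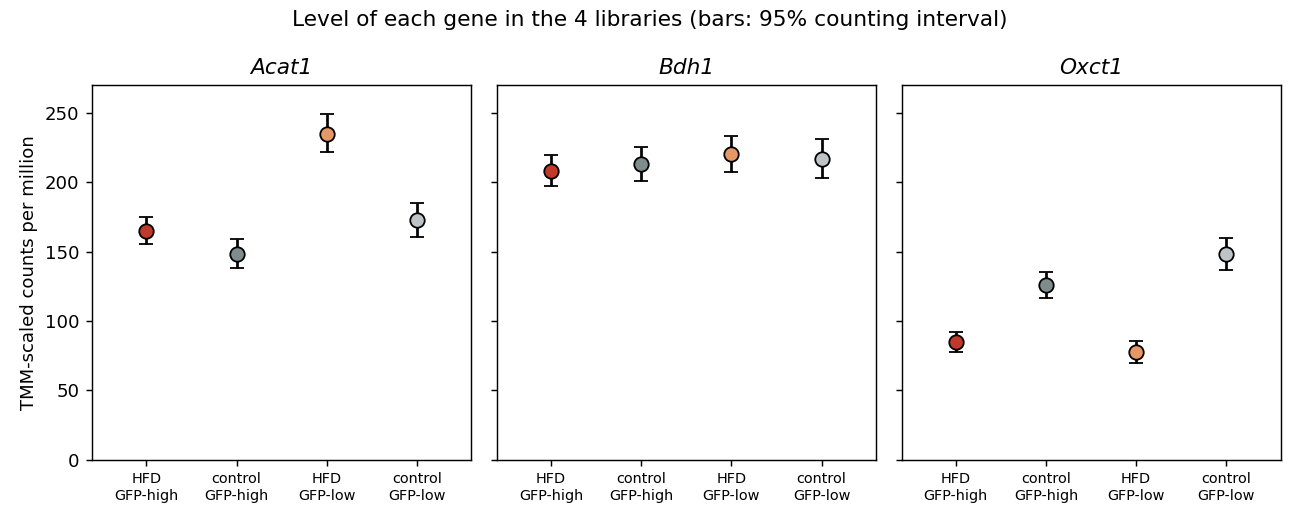
TMM-scaled CPM of the 3 genes in the 4 libraries, 1 point per library, with bars for the exact 95% Poisson interval of its count. GFP-high libraries come first, and within each fraction HFD lies left of control diet. Oxct1 sits at 84.5 and 77.5 in the HFD libraries against 126 and 148 in the control ones, Bdh1 stays between 208 and 220, and Acat1 is highest, at 235, in HFD GFP-low cells.

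Between fractions Oxct1 did not move beyond the spread, with a fitted log2 fold change of -0.06 ± 0.11 for GFP-high over GFP-low (SE, edgeR adjusted p = 0.675). On HFD the log2 ratio of GFP-high to GFP-low was 0.12 [-0.07 to 0.32], and on control diet -0.23 [-0.39 to -0.08]. The diet ratio of Oxct1 in GFP-high minus that in GFP-low cells was 0.36 on the log2 scale, with a counting error of 0.12, and 28.8% of tested genes had a difference at least as large in size. With 1 library per combination this difference could not be tested against replicates.

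Acat1 was lower in GFP-high than in GFP-low cells. It had 165 and 235 CPM in HFD GFP-high and GFP-low cells, against 148 and 172 CPM in control GFP-high and GFP-low cells, from 1101 and 1161 reads on HFD and 819 and 761 on control diet. Both GFP-high libraries lay below both GFP-low libraries, which held for 34.3% of tested genes, although the 165 CPM of HFD GFP-high and the 172 CPM of control GFP-low differed by less than counting error, with a log2 ratio of -0.06 [-0.20 to 0.07]. The fitted level was 1.29-fold lower in GFP-high cells, a log2 fold change of -0.37 ± 0.10 (SE, edgeR adjusted p = 0.00723). The log2 ratio of GFP-high to GFP-low was -0.51 [-0.63 to -0.39] on HFD and -0.22 [-0.36 to -0.07] on control diet. This call did not hold with DESeq2, where the log2 fold change was -0.36 (adjusted p = 0.176), nor with scaling by library totals, where it was -0.18 (adjusted p = 0.17). Scaling by totals moved the median log2 fold change of all tested genes by 0.19 in the fraction comparison. A change of scaling moves all genes nearly alike, so by construction Acat1 stood at -0.37 from that median under either scaling. That distance is therefore no separate check of the call.

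For diet, the fitted log2 fold change of Acat1 was 0.30 ± 0.10 for HFD over control (SE, edgeR adjusted p = 0.0937), which did not pass the threshold. In GFP-low cells the log2 ratio of HFD to control was 0.45 [0.31 to 0.58], and 10.2% of tested genes had a ratio as high or higher. In GFP-high cells it was 0.15 [0.02 to 0.29]. The diet ratio in GFP-high minus that in GFP-low cells was -0.29, with a counting error of 0.09, and 36.8% of tested genes had a difference at least as large in size.

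**Figure D2:**
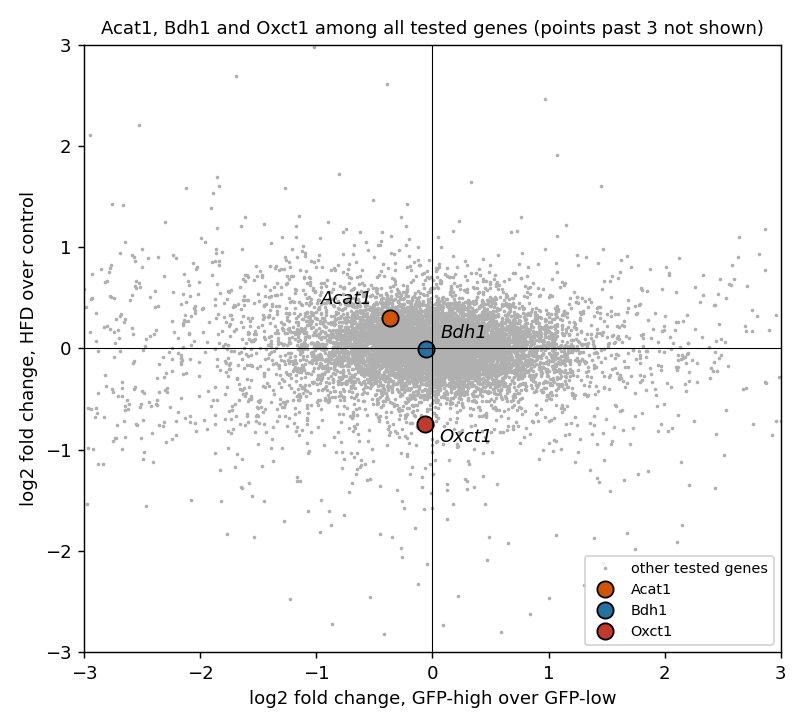
Each point is 1 of the 10694 tested genes, with its log2 fold change for GFP-high over GFP-low on the horizontal axis and for HFD over control on the vertical axis, and the 156 genes past 3 on either axis are not drawn. Bdh1 lies near the origin, Oxct1 at -0.75 on the diet axis, and Acat1 at -0.37 on the fraction axis.

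The ratio of 2 genes inside a library does not depend on how libraries are scaled. Bdh1 had 2.46 times the reads of Oxct1 in HFD GFP-high cells [95% interval 2.23 to 2.72] and 2.84 times in HFD GFP-low cells [2.52 to 3.20]. In control cells the ratio was 1.69 in GFP-high [1.54 to 1.86] and 1.47 in GFP-low [1.32 to 1.62]. The HFD intervals lay above the control intervals, and the ratio was 1.46-fold higher on HFD in GFP-high cells and 1.94-fold higher in GFP-low cells. Acat1 had 1.95 and 3.03 times the reads of Oxct1 in HFD GFP-high and GFP-low cells, against 1.18 and 1.17 times in control GFP-high and GFP-low cells. That ratio was 1.66-fold higher on HFD in GFP-high cells and 2.60-fold higher in GFP-low cells. Both ratios have Oxct1 as their denominator, so they carry its lower counts on HFD, and their intervals cover counting error only.

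**Figure D3:**
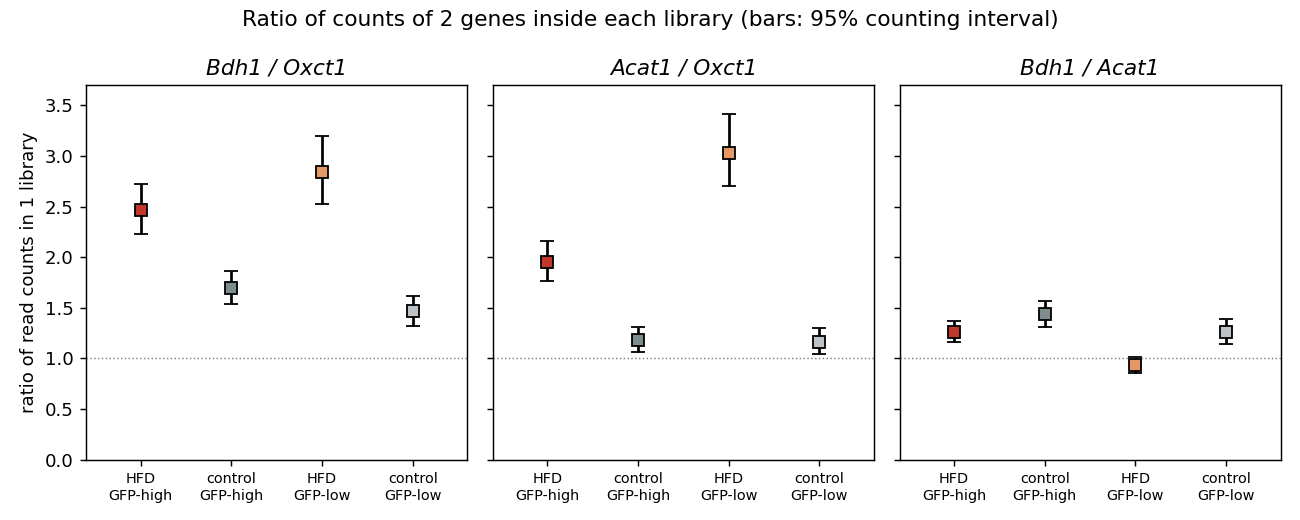
Ratio of the read counts of Bdh1 to Oxct1, Acat1 to Oxct1 and Bdh1 to Acat1 inside each of the 4 libraries, with bars for the 95% binomial interval and a dotted line at 1. The first 2 ratios are higher in both HFD libraries, at 2.46 and 2.84 against 1.69 and 1.47 for Bdh1 to Oxct1, and the last is lowest in HFD GFP-low cells, at 0.936.

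Per kilobase of exon, levels can be compared between the 3 genes. Averaged over the 4 libraries, Bdh1 stood at 55.2 CPM per kilobase, Acat1 at 47.9 and Oxct1 at 29.4. Oxct1 was the lowest of the 3 in every library. It made up 19.0% and 14.9% of the summed level per kilobase of the 3 genes in HFD GFP-high and GFP-low cells, against 26.5% and 28.2% in control GFP-high and GFP-low cells. Bdh1 exceeded Acat1 per kilobase 1.22-fold in HFD GFP-high, 1.39-fold in control GFP-high and 1.22-fold in control GFP-low cells. In HFD GFP-low cells the order was turned round, with a ratio of Bdh1 to Acat1 of 0.905 per kilobase [0.832 to 0.984]. This order depends on the exonic lengths used, since the ratio of reads before division by length was 0.936 [0.861 to 1.02], an interval that includes 1.

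The other listed genes of ketone metabolism gave no further diet call. Of 18 pathway genes listed, the 3 included, 9 were tested. None was called higher on HFD and 1, Oxct1, was called lower, where 2.96% and 3.50% of all tested genes were. The median log2 fold change of the 9 was 0.15 against 0.01 for all tested genes. The lactate and ketone body transporter MCT1, encoded by Slc16a1, had 139 and 179 CPM in HFD GFP-high and GFP-low cells, against 130 and 155 CPM in the control ones, and was not called for diet, with a log2 fold change of 0.15 (adjusted p = 0.412).

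In the fraction comparison 7 of the 9 tested pathway genes were called lower in GFP-high cells and none higher. Among all tested genes 25.6% were called lower and 22.0% higher. The median log2 fold change of the 9 was -0.44 against -0.00 for all tested genes. DESeq2 called 3 of the 7 and scaling by library totals 4. Of all 10694 tested genes, DESeq2 called 1491 lower in GFP-high cells and scaling by totals 1903, where TMM gave 2740. Bdh1 and Oxct1 were the 2 that were not called. The furthest shift among the enzymes was that of Aacs, the cytosolic synthetase that activates acetoacetate for lipid synthesis. It had 36.4 and 86.0 CPM in HFD GFP-high and GFP-low cells and 37.5 and 97.0 CPM in control GFP-high and GFP-low cells, a log2 fold change of -1.30 (edgeR adjusted p = 2.53e-07). The cytosolic thiolase gene Acat2 had a log2 fold change of -0.48 (adjusted p = 0.0482), a call that held under 1 of the 7 alternatives in which it was tested and not with DESeq2 (adjusted p = 0.408). Among transporters, Slc16a1 fell by 0.31 on the log2 scale (adjusted p = 0.0144), a call that DESeq2 did not make (adjusted p = 0.271). Slc16a6, a monocarboxylate transporter family member shown to export ketone bodies from liver in zebrafish, fell by 0.81 (adjusted p = 0.000224), and Bsg, the chaperone that brings MCT1 to the membrane, by 0.44 (adjusted p = 0.00137). The short chain fatty acid receptor gene Ffar2 had 16 and 27 reads in HFD GFP-high and GFP-low cells, against 9 and 33 reads in control GFP-high and GFP-low cells, and a log2 fold change of -1.64 for fraction (adjusted p = 0.00305), which DESeq2 did not call (adjusted p = 0.0784).

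The remaining 9 pathway genes had too few reads to test, with 0 to 19 per library. Hmgcll1 and Hcar2, the receptor for β-hydroxybutyrate, had no read in any library, which allows a level of up to 0.449 CPM in HFD GFP-high cells and up to 0.680 CPM in control GFP-low cells. Bdh2, a cytosolic dehydrogenase gene, had 2 reads in all, both in HFD GFP-low cells. The paralogs of Oxct1, Oxct2a and Oxct2b, which are known from testis, had 1 read in HFD GFP-low cells and 3 reads in control GFP-high cells in all, so Oxct1 was the CoA transferase gene detected at depth. The lactate receptor gene Hcar1 and the short chain fatty acid receptor gene Ffar3 had at most 1 and 3 reads in a library. The transporter gene Slc16a3 had 3 and 13 reads on HFD against 5 and 19 on control diet, and Slc16a7 had 13 and 5 against 6 and 1, each GFP-high first.

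**Figure D4:**
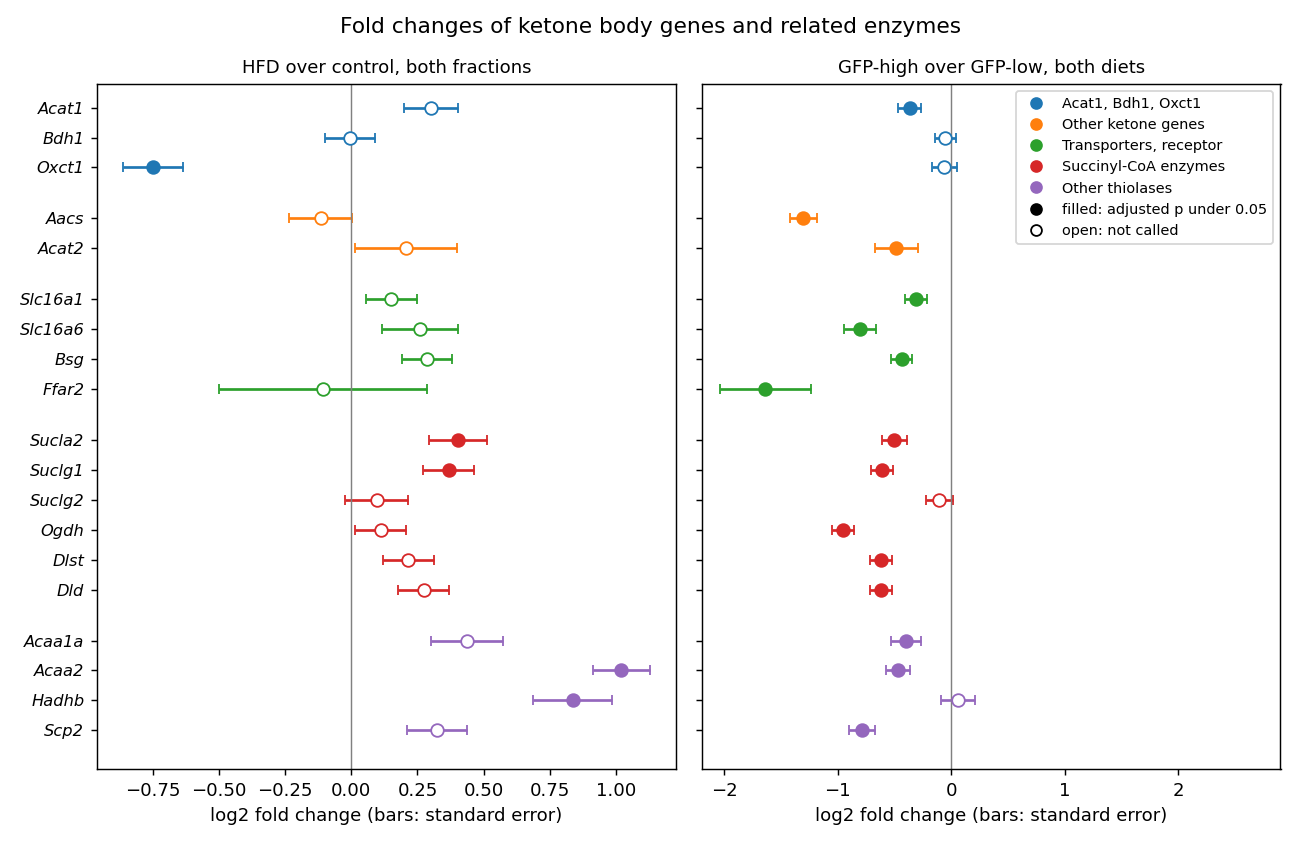
Log2 fold changes with SE for HFD over control and for GFP-high over GFP-low, for the 3 genes, the other tested pathway genes, the succinyl-CoA enzymes and the thiolases, with filled points called at an adjusted p under 0.05. In the diet panel Oxct1, at -0.75, is the one called point left of 0. In the fraction panel most points lie left of 0, while Bdh1, Oxct1, Suclg2 and Hadhb, all not called, lie near it.

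Genes that handle the partners of these reactions were set beside the 3. Of 6 tested enzymes that make or use succinyl-CoA, the CoA donor of Oxct1, 2 were called higher on HFD and none lower. They were the succinyl-CoA ligase subunits Sucla2, with a log2 fold change of 0.40 (edgeR adjusted p = 0.0371), and Suclg1, with 0.37 (adjusted p = 0.0301), and neither was called by DESeq2 or with its size factors in edgeR. Suclg2, Ogdh, Dlst and Dld had diet log2 fold changes of 0.10 to 0.27 and were not called. In GFP-high cells 5 of the 6 were called lower, the furthest being Ogdh with -0.95 (adjusted p = 9.07e-07). Among all tested genes 2.96% were called higher on HFD and 25.6% lower in GFP-high cells. Of the 10694 tested genes, DESeq2 called 73 higher on HFD, and edgeR with DESeq2 size factors 198.

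Of 6 tested thiolase genes, Acat1 among them, 2 were called higher on HFD. Acaa2, the thiolase of medium-chain β-oxidation, had 146 and 222 CPM in HFD GFP-high and GFP-low cells, against 79.8 and 98.3 CPM in control GFP-high and GFP-low cells, a log2 fold change of 1.02 ± 0.11 (SE, edgeR adjusted p = 1.18e-05). Hadhb, the thiolase subunit of the long-chain trifunctional protein, had a log2 fold change of 0.84 ± 0.15 (adjusted p = 0.00218). DESeq2 called 1 of them. Acat1, Acat2, Acaa1a and Scp2 had diet values of 0.30, 0.21, 0.44 and 0.32 and were not called. In GFP-high cells 5 thiolase genes were called lower, and Scp2 was the furthest with -0.79 (adjusted p = 3.13e-05). DESeq2 called 1 of these and scaling by library totals 2. The edgeR shares over all tested genes were 2.96% called higher on HFD and 25.6% called lower in GFP-high cells. Of the 10694 tested genes, DESeq2 called 73 higher on HFD and 1491 lower in GFP-high cells. With library totals 1903 were called lower in GFP-high cells. The peroxisomal thiolase gene Acaa1b, too low to test, had 8 and 33 reads in HFD GFP-high and GFP-low cells against 0 and 1 in the control ones.

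Pathways that feed and drain acetyl-CoA were counted in the same way, beside 2.96% of all tested genes called higher on HFD and 3.50% called lower. Of the 10694 tested genes, DESeq2 called 73 higher on HFD and 116 lower. Of 16 β-oxidation genes, 14 were called higher on HFD and none lower, with a median log2 fold change of 0.60 and the highest value, 1.05, in Acadvl, which encodes the dehydrogenase for very long acyl chains (edgeR adjusted p = 4.32e-06). DESeq2 called 7. Of 16 genes from citrate synthase to oxaloacetate, 3 were called higher on HFD and none lower, and none was called by DESeq2. These 3 include Sucla2 and Suclg1, already counted among the succinyl-CoA enzymes. Of 19 genes of branched chain amino acid breakdown, in which Acat1 performs the last step for isoleucine, none was called for diet by edgeR or DESeq2. Their median log2 fold change was 0.05, with 8 negative values. In edgeR 6 of them, Acat1 included, had an unadjusted p under 0.05, as had 2174 of all 10694 tested genes.

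For fraction, 25.6% of all tested genes were called lower in GFP-high cells and 22.0% higher. Of the same 10694 genes, DESeq2 called 1491 lower and 899 higher. With scaling by library totals, edgeR called 1903 of them lower and 3633 higher. Of the β-oxidation genes 13 were called lower, the furthest being the carnitine carrier gene Slc25a20 with a log2 fold change of -1.11. DESeq2 called 8. The citrate cycle genes gave 14 called lower, the furthest being the malate dehydrogenase gene Mdh2 with -1.20 (adjusted p = 1.16e-07). Of these 14, DESeq2 did not call Sucla2, Idh3b, Sdha and Fh1 (adjusted p = 0.0858, 0.171, 0.144 and 0.191) and called the rest. The branched chain genes split, with 5 called higher and 4 lower, or 9 higher and 1 lower when libraries were scaled by their totals. Bckdhb, a subunit of the branched chain ketoacid dehydrogenase, was the highest with 1.20 (adjusted p = 0.0019), and Dld, which that complex shares with others, the lowest with -0.62 (adjusted p = 6.4e-05). DESeq2 called 1 in each direction.

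Marker levels of several cell types differed along with these values, where 2.96% of all tested genes were called higher on HFD and 3.50% lower. The 10 enterocyte markers summed to 1134 and 6800 CPM in HFD GFP-high and GFP-low cells, against 883 and 3281 CPM in control GFP-high and GFP-low cells, and 4 of the 10 were called higher on HFD. The 6 Paneth markers summed to 440 and 1088 CPM on HFD against 768 and 2252 on control diet, with 5 of the 6 called lower on HFD. Goblet markers summed to 2965 and 17110 CPM on HFD against 3305 and 38840 on control diet, and none of the 7 was called for diet by edgeR. Of the 7, 1 had an unadjusted p under 0.05, as had 2174 of all 10694 tested genes. Enteroendocrine markers summed to 68.5 and 437 CPM on HFD against 54.3 and 1017 on control diet, with 1 of 6, Cck, called lower on HFD at a log2 fold change of -0.88 (edgeR adjusted p = 0.0081). Tuft markers summed to 13.2 and 17.0 CPM on HFD against 11.2 and 17.7 on control diet. Of the 10 stem cell markers 1, Tnfrsf19, was called lower on HFD at -0.94 (adjusted p = 0.00467). Leukocyte markers summed to 13.5 and 25.9 CPM on HFD against 16.5 and 37.2 on control diet, and stromal and endothelial markers to 2.40 and 16.0 against 1.63 and 26.1. In each of these sums the GFP-high library is given before the GFP-low one. The part of these marker levels in the values of Oxct1 and Acat1 was not tested. In these bulk samples, fewer cells of a type and less RNA per cell cannot be told apart.

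Genes whose levels ran most like each of the 3 were found by the root mean square difference of log2 profiles over the 4 libraries, each centred on its own mean, among 8707 genes of at least 10 CPM on average. Nearest to Oxct1 were the transcription factor gene Hivep2 at 0.03, Csrp1, which encodes an actin-associated LIM protein, at 0.03 and Esyt1, an extended synaptotagmin gene, at 0.04, where the median over all compared genes was 0.47. Hivep2 had 22.0 and 21.0 CPM in HFD GFP-high and GFP-low cells against 34.0 and 41.2 CPM in the control ones. Nearest to Acat1 were Pyurf, Pgap2 and the mitochondrial asparaginyl-tRNA synthetase gene Nars2, all within 0.03, with a median of 0.33. Nearest to the level profile of Bdh1 were Sft2d1, Pter and the sorting nexin gene Snx27, all within 0.01, with a median of 0.23. Sft2d1 had 11.5 to 12.1 CPM and Pter 14.1 to 14.8 CPM, levels at which counting error is larger than such differences. Likeness over 4 libraries is a description that many genes share.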

How the data were processed

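Whole-number read counts per gene were deposited by the authors for each of 4 libraries. Per the labels' protocols, poly(A) RNA was made into strand-specific dUTP libraries. Per the submitters' processing notes, cutadapt, TopHat 1.4.1 and HTSeq were used with GRCm38 (mm10). The sources used here name neither the annotation nor the strand setting used for counting. A wrong strand setting would mix overlapping genes, and multi-mapped reads could affect paralogs.

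A minimum of 20 counts in 2 or more libraries was required for testing, done with edgeR 4.0.16 (quasi-likelihood, robust, diet plus fraction, TMM) in R 4.3.3, with Benjamini-Hochberg adjustment over all tested genes. DESeq2 1.42.0 was an alternative. Ratios of libraries used log2(CPM + 0.5) with exact 95% Poisson intervals, and ratios within a library binomial intervals, both for counting error only. The common biological coefficient of variation was 0.0833. The script was tested on simulated data. The genes, lists and tests were chosen with earlier results of these data known. Named were the 3 genes, all pathway, succinyl-CoA and thiolase genes, the called extremes of the other lists, and the 3 nearest genes by profile. The lists do not hold every gene of ketone metabolism, and 2 listed genes are not reported here. Genome positions come from GENCODE M21 and promoters from RefSeq. Promoters of Bdh1 and Oxct1 matched, 2 of the 3 genes.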

Additional observations from a re-analysis of the deposited data

Results flagged for a closer look

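Oxct1 had fraction ratios of opposite sign on the 2 diets, higher in GFP-high cells on HFD and lower in GFP-high cells on control diet. Their difference was 0.36 on the log2 scale, and on HFD the 95% counting interval of the ratio included 0.

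Bdh1 had diet ratios of opposite sign in the 2 fractions, lower on HFD in GFP-high cells and higher on HFD in GFP-low cells. Their difference was -0.052 on the log2 scale, and both counting intervals included 0. Neither difference was tested, since 1 library per combination leaves no degree of freedom for it.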

How the results depend on the processing

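Of 54 alternative values of the 3 genes' fold changes, 47 kept direction and side of the threshold. The fall of Oxct1 on HFD was called under every alternative with both terms in the model, with adjusted p between 6.22e-10 (no low-count filter) and 0.0219 (DESeq2). Without the fraction term it was -0.76 (adjusted p = 1), and that model called 0 genes for diet, with 149 at an unadjusted p under 0.05 and 189 called by DESeq2 with both terms. With no low-count filter 1158 genes were called for diet, and Acat1, at 0.30, was called (adjusted p = 0.0491). For fraction, DESeq2 called 2390 genes and the model without diet 2948. Acat1 for fraction was -0.18 (adjusted p = 0.17) with library totals, -0.36 (adjusted p = 0.176) with DESeq2 and -0.38 (adjusted p = 0.141) without the diet term. Scaling by library totals reversed the uncalled fraction values of Bdh1 to 0.14 and of Oxct1 to 0.13, and split the fraction calls into 3633 higher and 1903 lower in GFP-high cells, where TMM gave 2350 higher and 2740 lower. The causes were not tested. Of 160 alternative list counts, 131 stayed within 1.5 times. Among these are the diet calls of the cytosolic enzyme, transporter and receptor lists, which were 0 under every setting. Such counts in lists of few tested genes are a weak check of stability. Of 48 alternative pair ratios, 42 stayed within counting error, and the other 6 were all the fraction ratios of the 3 genes scaled by totals. Among the 48 are ratios with a pseudocount of 0.1 or 1 CPM, which could hardly move genes at these levels. No paired analysis was possible because the labels carry no replicate numbers, beyond the model's own setting of each GFP-high library against the GFP-low library of its diet, and leaving out a library leaves no residual degree of freedom. At this depth the genes with few reads could not be compared.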
